A study of Danio rerio with 2 samples.

Results

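The sarcomere is the contractile unit of striated muscle. Actin thin filaments are anchored and cross-linked at the Z-disc, myosin thick filaments are cross-linked at the M-band, and the giant protein titin spans from one to the other. Heart and skeletal muscle build this scaffold from partly different members of the same gene families. The genes described here encode its Z-disc, M-band and thin filament parts, together with desmin and the chaperones that help to fold and assemble myosin, and leave out myosin chains and troponins. They were chosen by symbol from a list of 40 names, with earlier results of these data known. The count table held 39 of them among 32057 genes, and myozap, which was not matched by symbol, is not analysed here.

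Transcripts were sequenced from hearts dissected out of zebrafish (Danio rerio) embryos aged 96 hours post fertilisation. Fish with the nju18 allele of the forkhead transcription factor gene foxc1a gave 1 library, and TU strain wild types gave the other. Neither the number of hearts per library nor the effect of the allele on the foxc1a transcript is given in the sources used here. The comparison asks how transcripts of the sarcomere scaffold differed between the hearts of the 2 genotypes. With 1 library per genotype there is no replicate check and no test between genotypes, so a fixed rule of 2-fold stands in place of a test.

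The libraries held 17467109 (mutant-labelled) and 20049851 (wild-type-labelled) reads counted to genes. foxc1a (ENSDARG00000091481) had 798 and 629 reads, 50.5 and 28.4 CPM, which does not check the labels, so the libraries are called by their labels. CPM (counts scaled to a common library size) are given after TMM scaling, a correction for library composition. Log2 ratios are mutant-labelled over wild-type-labelled with 1 CPM added to each, whereas printed ratios have nothing added and carry an exact 95% counting interval. Paired values give the mutant-labelled library first. The intervals cover counting error only and compare 2 libraries, not genotypes. All 15 cardiomyocyte markers reached 5 CPM in at least 1 library, and transcripts of skeletal muscle, red cells, retina and neurons were present as well. Scaling by total counts instead shifts log2 ratios by -0.29, which takes the median over all genes from 0.04 to -0.26.

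Most genes of the scaffold were higher in the mutant-labelled library. Of the 39 members, 23 were higher by 2-fold or more and 0 lower by as much, against 5.91% and 8.35% of all 25254 genes with a read. With a filter of 5 CPM in either library, 36 members remained, with the same numbers past 2-fold, against 9.61% of 12259 genes in the higher and 11.1% in the lower direction. With total-count scaling 19 members were higher and 1 lower, against 702 of 12331 genes higher and a larger number lower. The share of higher genes among all genes past 2-fold went from 46.5% to 24.5%, the rest being lower. The filter was passed only through the mutant-labelled library by actn3a, myoz2a and desmb, and only through the other by fhl2b. For each of the 23 the whole counting interval was above 2-fold, as it was for 7.37% of all genes passing the filter. The median log2 ratio of the 36 was 1.31. It lay 1.27 above that of all genes under TMM scaling and 1.28 above it when libraries were scaled by total counts.

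**Figure D1:**
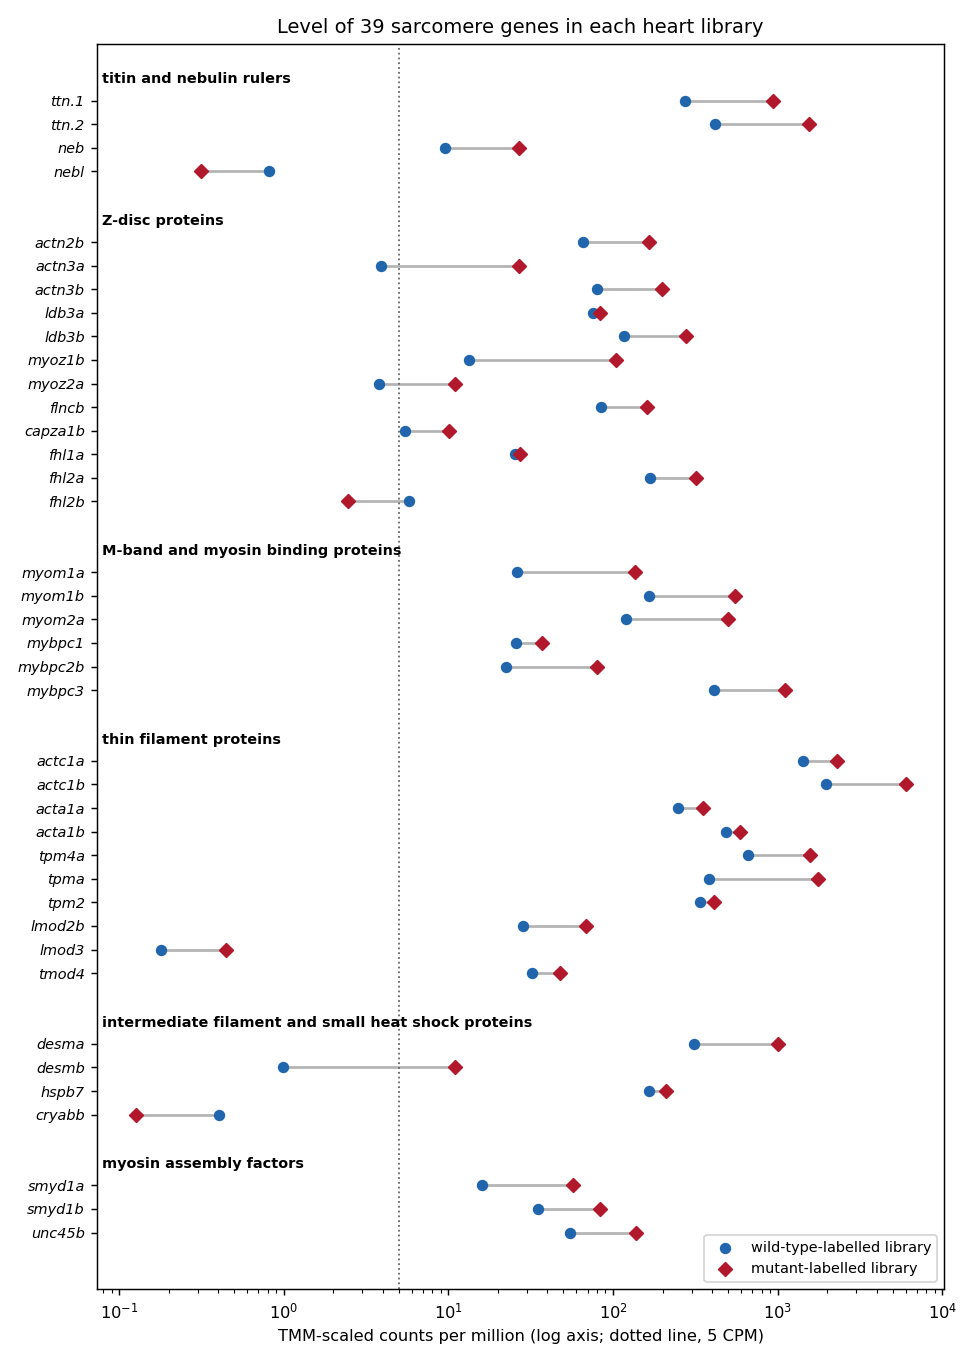
Level of the 39 sarcomere genes in TMM-scaled CPM (log axis), grouped by the role of the protein, with a circle for the wild-type-labelled and a diamond for the mutant-labelled library. The diamond lies to the left of the circle for fhl2b, nebl and cryabb only, and nebl, lmod3 and cryabb stay under 5 CPM in both libraries.

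Together the members took 1.89% of the reads of the mutant-labelled library and 0.916% of the other. Their summed level was 20879 CPM against 8284 CPM, a ratio of 2.52. Thin filament genes alone took 1.18% and 0.617% of all reads, the most of the 6 role groups in each library. In a bulk library, more muscle cells, a different mix of tissues in the sample and more transcript per cell cannot be told apart.

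Titin is the largest protein of the scaffold and acts as a molecular spring and ruler. ttn.2 (ENSDARG00000028213), the titin gene disrupted in the zebrafish pickwick heart mutant, had 24579 mutant-labelled and 9282 wild-type-labelled reads, or 1556 and 419 CPM, which is 3.72 times as much (3.63 to 3.81). Its tandem copy ttn.1 (ENSDARG00000000563) had 14707 and 6108 reads, 931 and 275 CPM, a ratio of 3.38 (3.28 to 3.48). The copies are next to each other in the gene order of the GRCz12tu annotation and are similar in sequence, so the division of reads between them is uncertain. Per length, ttn.2 stood above ttn.1 in both libraries, at 14.3 against 9.51 FPKM (reads scaled to gene length and library total) in the mutant-labelled library and 4.70 against 3.44 FPKM in the other. The balance within the titin pair differed little, ttn.1 taking 39.98% and 42.3% of its FPKM.

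Nebulin winds along the skeletal thin filament, and in mammals the shorter nebulette takes its place at the cardiac Z-disc. neb had 426 and 211 reads, 27.0 and 9.52 CPM, a ratio of 2.83 (2.40 to 3.36). nebl was barely detected, with 5 reads in the mutant-labelled library against 18, and its ratio of 0.390 had an interval from 0.113 to 1.09. The low nebl counts make its direction undetectable at this depth. Within the pair, neb took 91.0% of FPKM in the mutant-labelled and 58.3% in the other library, an odds ratio (the ratio of neb divided by that of nebl) of 7.27 (2.55 to 25.3) that rests on those few nebl reads.

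The Z-disc genes were split, 6 of 12 being at least 2-fold higher, against 9.61% of all genes passing the filter. The other 6 were within 2-fold by the rule with 1 CPM added. Among them fhl2b had a ratio of 0.428 with nothing added. Alpha-actinin cross-links actin filaments of neighbouring sarcomeres, and its 3 genes among the members were all past 2-fold. The non-muscle alpha-actinin genes, no members, were not, actn1 having a ratio of 0.852 (0.803 to 0.904) and actn4 one of 1.21 (1.17 to 1.26). actn2b, whose mammalian counterpart serves heart and skeletal muscle, had 165 and 65.8 CPM, a ratio of 2.502 (2.35 to 2.67). actn3b, of the type known from fast fibres in mammals, had 199 and 79.7 CPM, a ratio of 2.503 (2.36 to 2.65). Its paralog actn3a (ENSDARG00000013755) stood apart, with 422 and 87 reads, 26.7 and 3.92 CPM, a ratio of 6.81 (5.40 to 8.68). The ratio of actn3a was 2.72 times that of actn3b (2.14 to 3.49), a comparison that no library scaling changes. Per length actn3a was nevertheless the lowest of the 3 in both libraries, at 7.41 and 1.33 FPKM.

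Myozenins tether the phosphatase calcineurin to alpha-actinin at the Z-disc. myoz1b (ENSDARG00000071445), of the fast skeletal type in mammals, had the largest log2 ratio of all members at 2.87, with 1644 and 296 reads, or 104 and 13.3 CPM. Its ratio was 7.80 (6.89 to 8.86). myoz2a, of the type found in heart and slow muscle in mammals, was at 11.0 and 3.79 CPM, a ratio of 2.89 (2.22 to 3.80). The myoz1b share of the pair's FPKM was 88.2% in the mutant-labelled library against 73.4% in the other. Further myozenin genes, no members, were near even. myoz1a had 99 and 131 reads, a ratio of 1.06 (0.809 to 1.39), and myoz3a 202 and 267 reads, a ratio of 1.06 (0.880 to 1.28). In the wild-type-labelled library they stood at 3.40 and 2.93 FPKM, above myoz2a at 2.33 FPKM.

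The LIM domain and filamin members of the Z-disc had ratios of up to 2.40. ldb3b, one of 2 genes for the Z-disc PDZ-LIM protein also called Cypher, had 279 and 116 CPM, a ratio of 2.40 (2.29 to 2.52). Its paralog ldb3a had 83.5 and 75.2 CPM, a ratio of 1.11 (1.03 to 1.19), which falls below 1 with total-count scaling. The ratio of ldb3b was 2.16 times that of ldb3a (1.98 to 2.36), and per length ldb3b stood 5.63 times above ldb3a in the mutant-labelled and 2.60 times in the other library. flncb, a gene of the actin cross-linker filamin C, had 161 and 84.0 CPM, a ratio of 1.92 (1.80 to 2.04). Its paralog flnca is no member and was past 2-fold, at 389 and 152 CPM, a ratio of 2.56 (2.46 to 2.67). capza1b, a subunit of the protein that caps barbed actin ends in the Z-disc, had 10.1 and 5.46 CPM, a ratio of 1.85 (1.45 to 2.36). More abundant genes of that protein, no members, were near even. capza1a had 188 and 166 CPM (ratio 1.13) and the beta subunit gene capzb 177 and 164 CPM (ratio 1.08).

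The four-and-a-half-LIM genes held the 1 measured member that was lower. fhl2b (ENSDARG00000003991) had 39 reads in the mutant-labelled library against 128 in the other, 2.47 and 5.77 CPM, a ratio of 0.428 (0.291 to 0.617). With 1 CPM added its log2 ratio was -0.96, just inside the 2-fold rule. fhl2a, its far more abundant paralog, had 317 and 167 CPM, a ratio of 1.90 (1.82 to 1.98). The ratio of fhl2a was 4.43 times that of fhl2b (3.07 to 6.54), the largest gap of the 11 paralog pairs compared. fhl1a stayed close to even at 27.2 and 25.5 CPM, the only member at 5 CPM or more whose interval held 1 (0.939 to 1.21), and its sign turns with total-count scaling.

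**Figure D2:**
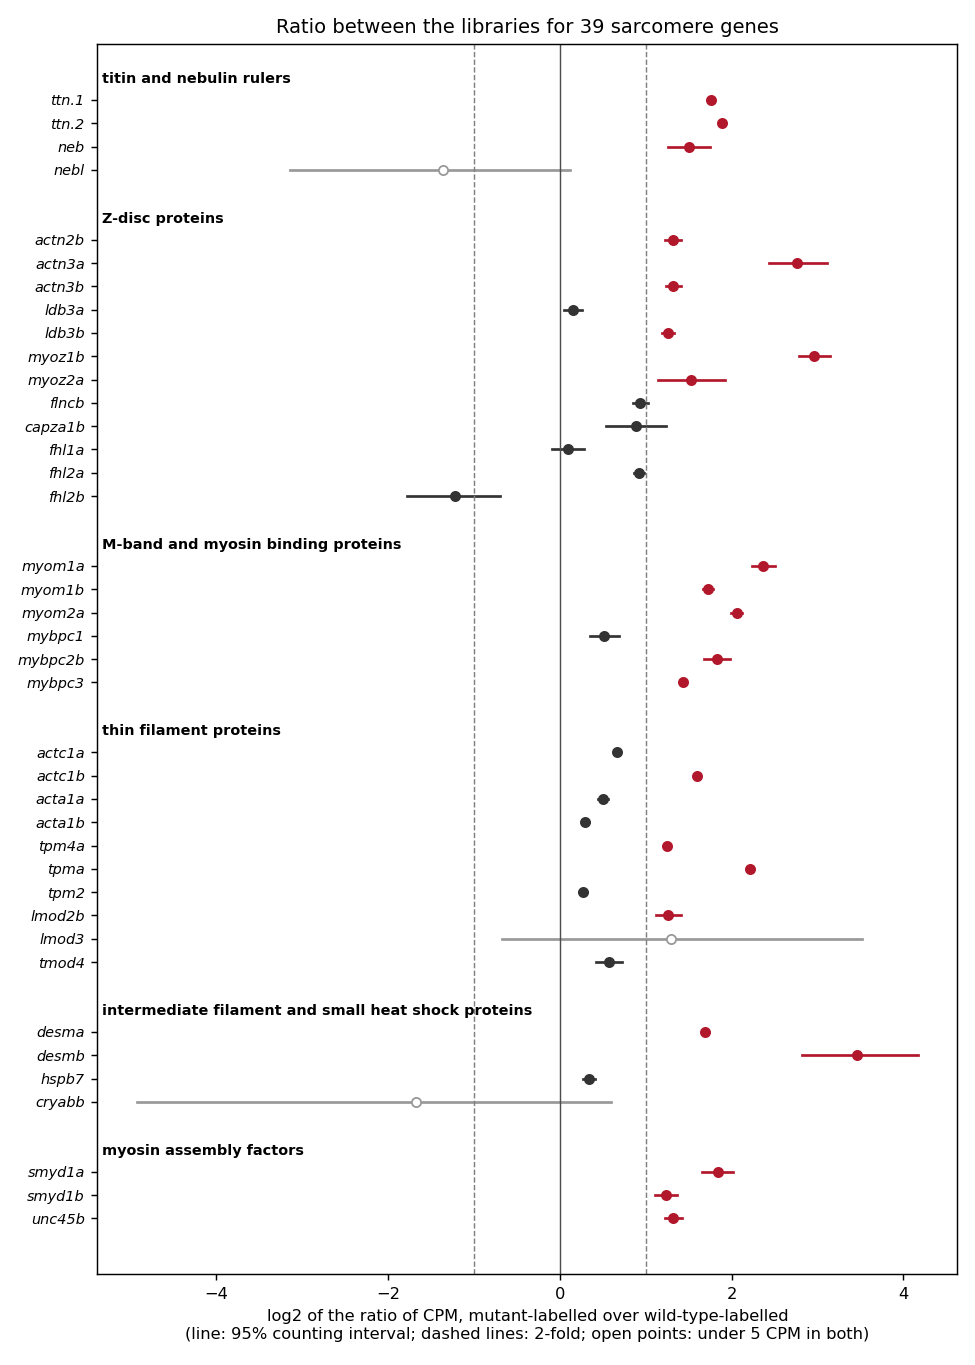
Log2 of the ratio of TMM-scaled CPM between the libraries, nothing added, for the 39 sarcomere genes, with the 95% counting interval as a line and open points for genes under 5 CPM in both libraries. The 23 filled red points are the genes past 2-fold in favour of the mutant-labelled library by the rule with 1 CPM added, from 2.36 (smyd1b) to 11.0 times (desmb).

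Of the 6 genes for M-band and thick filament binding proteins, 5 passed 2-fold upward, against 9.61% of all genes passing the filter. Myomesin cross-links myosin filaments at the M-band, and its 3 genes among the members were all above 3 times higher. The further names myom2b and myom3 were not matched by symbol and are not analysed here. myom1a (ENSDARG00000061249) had 2136 and 581 reads, 135 and 26.2 CPM, a ratio of 5.16 (4.71 to 5.67). myom2a was at 500 and 120 CPM, a ratio of 4.18 (3.997 to 4.37). myom1b, per length the most abundant of the 3 myomesin members in both libraries at 71.1 and 26.3 FPKM, had a ratio of 3.32 (3.19 to 3.45).

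Myosin binding protein C sits on the thick filament on both sides of the M-band and tunes cross-bridge cycling. The cardiac form mybpc3 (ENSDARG00000011615) had 17492 and 9098 reads, 1108 and 410 CPM, a ratio of 2.70 (2.63 to 2.77). The fast skeletal form mybpc2b had 79.9 and 22.4 CPM, a ratio of 3.57 (3.21 to 3.96), while the slow form mybpc1 had 37.0 and 25.8 CPM, a ratio of 1.43 (1.28 to 1.61). The cardiac form dominated both libraries to a like degree, with 86.5% of the FPKM of these 3 genes in the mutant-labelled library against 85.5% in the other. Per length, mybpc2b was 2.40 times mybpc1 in the mutant-labelled and 0.965 times in the other library. The second fast gene, mybpc2a, is no member and leaned the other way, with 68 and 181 reads, a ratio of 0.528 (0.393 to 0.701). Both fast genes together stood above mybpc1 in each library, at 19.6 against 7.82 FPKM in the mutant-labelled and 8.30 against 6.68 FPKM in the wild-type-labelled one.

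Alpha-actins form the core of the thin filament, and actc1b and actc1a were the members with the highest FPKM in both libraries. actc1b (ENSDARG00000099197), named for cardiac actin and also expressed in zebrafish skeletal muscle, had 94456 and 43739 reads, 5981 and 1972 CPM, a ratio of 3.03 (2.998 to 3.07). By FPKM it ranked 23 among all genes of the mutant-labelled library, against 68 in the wild-type-labelled one. actc1a had 2280 and 1431 CPM, a ratio of 1.59 (1.57 to 1.62). The skeletal actin genes differed less, acta1a at 354 and 249 CPM (ratio 1.42) and acta1b at 595 and 484 CPM (ratio 1.23). The share of actc1b in the family's FPKM was 63.0% in the mutant-labelled library against 45.6% in the other, and each of the other 3 actin genes took a smaller share in the mutant-labelled one. These 4 genes encode nearly the same protein, so the division of reads among them is uncertain.

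Tropomyosin lies along the actin filament and gates access of myosin. tpma (ENSDARG00000033683), the alpha-tropomyosin gene of striated muscle, had 27846 and 8447 reads, 1763 and 381 CPM, a ratio of 4.63 (4.52 to 4.74). tpm4a, which is expressed in the embryonic zebrafish heart, had 1571 and 663 CPM, a ratio of 2.37 (2.32 to 2.42). tpm2, beta-tropomyosin, had 409 and 339 CPM, a ratio of 1.21 (1.17 to 1.25), and its sign turns with total-count scaling. Per length, the leading gene differed by library: tpm4a took 51.0% of the FPKM of these 3 genes in the wild-type-labelled library, and tpma took 49.8% in the mutant-labelled one. With the non-member genes tpm1 and tpm3 included, tpma took 45.3% and 23.5% and tpm4a 38.6% and 39.1%.

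**Figure D3:**
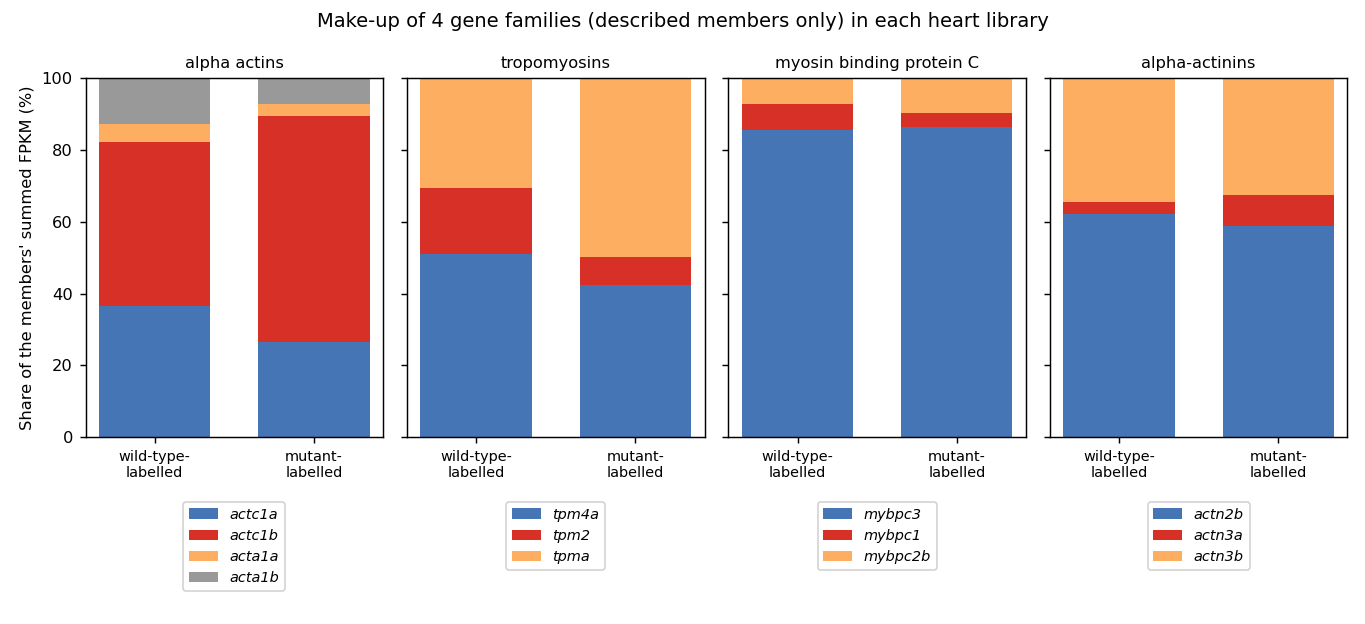
Share of the summed FPKM of the members of 4 gene families taken by each gene in the wild-type-labelled (left bar) and mutant-labelled (right bar) library, in percent. actc1b and tpma took larger shares in the mutant-labelled library (63.0% and 49.8%) than in the other (45.6% and 30.6%), while mybpc3 stayed at 86.5% and 85.5%.

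Proteins at the pointed end of the thin filament set its length. lmod2b, a leiomodin that nucleates and elongates actin in the heart, had 68.6 and 28.6 CPM, a ratio of 2.40 (2.17 to 2.65). The muscle leiomodin lmod3 had 7 and 4 reads, too few for a direction (interval 0.625 to 11.4). tmod4, a tropomodulin that caps the pointed end in skeletal muscle, had 47.7 and 32.0 CPM, a ratio of 1.49 (1.34 to 1.65). tmod1, the tropomodulin known from heart and red cells, is no member and had 30.5 and 16.2 CPM, so tmod4 took 45.4% of the pair's FPKM in the mutant-labelled and 51.2% in the other library.

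Desmin filaments link neighbouring Z-discs to each other and to the cell membrane. desma (ENSDARG00000058656) had 15836 and 6864 reads, 1003 and 310 CPM, a ratio of 3.24 (3.15 to 3.33). desmb (ENSDARG00000005221) had the largest ratio of all members without an added value, 11.0 (7.06 to 18.1), from 173 and 22 reads or 11.0 and 0.992 CPM. Even so, desmb took 0.891% and 0.263% of the FPKM of both desmin genes, so desma set the desmin level in both libraries. hspb7, a small heat shock protein of heart muscle, was near even at 209 and 166 CPM, a ratio of 1.26 (1.204 to 1.32). cryabb, an alpha-B-crystallin gene, had 2 and 9 reads, too few for a direction (interval 0.0328 to 1.51).

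All 3 genes for myosin assembly factors passed 2-fold in the higher direction, against 9.61% of all genes passing the filter. unc45b, the chaperone that folds the myosin motor domain, had 138 and 55.2 CPM, a ratio of 2.499 (2.33 to 2.68). smyd1b, a methyltransferase family protein needed for myofibril assembly in zebrafish, had 82.9 and 35.2 CPM, a ratio of 2.36 (2.16 to 2.58). smyd1a had 57.0 and 15.9 CPM, a ratio of 3.58 (3.16 to 4.06), which was 1.52 times that of smyd1b (1.30 to 1.77).

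Set against actin within each library, some classes of member genes differed in proportion, a comparison in FPKM that library scaling does not touch. Per 100 FPKM of alpha-actin, the desmin genes summed to 10.2 in the mutant-labelled library against 6.86 in the other. The 3 tropomyosin members summed to 19.99 and 15.4, but with tpm1 and tpm3 included the sums were 21.9 and 20.1. The myomesin genes stood at 3.17 and 1.82 and the titin genes at 0.491 and 0.301. In the other direction, the 3 four-and-a-half-LIM members stood at 3.08 and 3.90 (3.58 and 4.90 with fhl1b, fhl3a and fhl3b) and the ldb3 genes at 1.52 and 1.63. Leiomodin members were close, at 0.701 and 0.640. Myosin binding protein C members stood at 4.07 and 3.35 (4.09 and 3.42 with mybpc2a) and the assembly factors at 1.68 and 1.48. The 3 alpha-actinin members stood at 1.75 and 1.45, but the direction turned with actn1 and actn4 included, at 4.03 and 5.93. Of 10 gene families whose inner balance was compared, 8 had an odds ratio of reads whose counting interval excluded 1, and alpha-actinins (0.992 to 1.18) and leiomodins (0.259 to 4.79) did not. In all 11 paralog pairs the interval excluded 1, with the smallest gap between ttn.2 and ttn.1 (1.1, interval 1.06 to 1.14). The pairs were chosen after seeing the data, and the division of reads is uncertain within titins and alpha-actins. At high read counts a counting interval excludes 1 even at small gaps. The share of other gene sets or pairs that would do so was not computed, so no conclusion is drawn from these numbers.

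The authors' deposited table, computed with their own normalisation, called 11 of the 39 members higher and 0 lower, against 4.24% and 7.63% of its 23256 genes. Its calls were desmb, myoz1b, actn3a, myom1a, tpma, myom2a, smyd1a, mybpc2b, ttn.2, ttn.1 and myom1b. In the authors' deposited table desmb had a log2 fold change of 3.43 with a false discovery rate (FDR) of 6.65e-09, and myom1b, the call nearest the threshold, 1.69 with an FDR of 0.0302. desma narrowly missed it in the authors' deposited table, at 1.66 with an FDR of 0.0529. actc1b, the most abundant member, was not called in the authors' deposited table (1.56, FDR 0.235), nor was mybpc3 (1.40, FDR 0.340). How an FDR was obtained from 1 library per genotype is not given in the sources used here.

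Further sarcomere genes outside the 40 names also had, for the most part, higher levels in the mutant-labelled library. Like the members, they were chosen with earlier results of these data known, so they are no independent check. Of 63 names 58 had a row and 46 reached 5 CPM in either library. Of those, 39 had a log2 ratio above 0, as did 52.4% of all genes, and 14 passed 2-fold upward and 0 downward, against the 9.61% and 11.1% of all genes given above. With total-count scaling 31 were above 0, 10 passed upward and 1 (mybpc2a) downward, and with the deposited FPKM 6 passed upward. Their median log2 ratio was 0.79. The largest log2 ratio belonged to myot, the Z-disc protein myotilin, at 50.8 and 8.43 CPM (2.46). klhl31, a kelch protein of muscle, had 170 and 42.5 CPM (1.97) and spega, a kinase-domain protein of striated muscle, 19.9 and 4.69 CPM (1.88). M-band genes were again among them: obscnb, an obscurin gene, had 31.5 and 8.61 CPM (1.76) and the obscurin-like obsl1b 17.0 and 5.05 CPM (1.57). mybphb, related to myosin binding protein C, was at 407 and 121 CPM (1.74), synpo2lb at 347 and 115 CPM (1.58), and trim55b, a muscle ubiquitin ligase gene, at 61.9 and 21.3 CPM (1.496). The tropomyosin gene tpm3 (569 and 630 CPM) and the non-muscle alpha-actinin gene actn4 (401 and 330 CPM), both used widely outside striated muscle, were near even.

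Markers of striated muscle cells were, for the most part, higher along with the scaffold genes. Of 22 skeletal muscle markers 15 were measured and 13 of them passed 2-fold upward, against 9.61% of all genes passing the filter. The summed level over the list was 10577 against 2634 CPM. The exceptions among those measured were the myogenic regulator myod1 (48.1 and 27.1 CPM) and the parvalbumin gene pvalb4 (205 and 250 CPM). Under 5 CPM in both libraries were the myogenic regulators myog (65 and 95 reads), myf5 (14 and 20) and myf6 (11 and 12), and mylpfa (4 and 0). pvalb1, ckmb and atp2a1, products of fast muscle, were at 2451 and 491, 2026 and 523, and 2834 and 529 CPM. In both libraries tnnc2, pvalb3 and casq1a had 0 reads, where a count of 0 allows up to 3 reads. mylpfb, the paralog of mylpfa, had 9013 and 1699 reads. Whether reads of genes with few or 0 reads were lost or counted to another gene was not tested, so these counts do not show absence. Of 15 cardiomyocyte markers 9 passed 2-fold upward, against the same 9.61%. Their log2 ratios ran from 0.09 for gata4 to 3.39 for myh7. The summed level over the list was 30810 against 8944 CPM. The largest parts of it in the mutant-labelled library were myh7l (7644 and 1485 CPM) and myh7 (6535 and 621 CPM). Within 2-fold were nkx2.5 (ratio 1.22), tbx5a (1.89), gata4 (1.08), myl7, myh6 and slc8a1a. Of the 36 measured members, 26 exceeded the ratio of myl7 (1.68) and 23 that of cmlc1 (2.28), both cardiac myosin light chain genes. Both of these genes had smaller ratios than nppa, tnni1b, tnnt2a, myh7l and myh7 of the cardiomyocyte list. The members were not counted against those higher markers, so these counts do not rank the scaffold against cardiac genes. For skeletal muscle genes, 11 members exceeded the ratio of the troponin gene tnnt3b (3.31) and 6 that of the creatine kinase gene ckmb (3.87). The share of all genes past any of these ratios was not computed.

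Lists of cells other than striated muscle went the other way or stayed even. Among all genes passing the filter, 11.1% were at least 2-fold lower and 9.61% at least 2-fold higher. All 8 retina markers were at least 2-fold lower, summing to 315 against 2795 CPM, as were 4 of 7 neuron markers, snap25a, snap25b, syt1a and stmn2a (list sums 176 against 374 CPM). Of 5 measured red cell markers, hbae3, hbbe1.1, hbbe2 and slc4a1a were lower by 2-fold (list sums 822 against 2468 CPM). hbbe3 and alas2, under 5 CPM in both libraries, leaned the other way, with 22 and 4 reads and 28 and 14 reads. Of 7 smooth muscle markers 6 were measured and 1, the elastin gene elnb, was lower by 2-fold (list sums 703 against 882 CPM), and 0 of 7 endothelial markers were 2-fold apart (730 against 590 CPM). The part of skeletal muscle, retina, neurons or blood in the ratios of the scaffold genes was not tested.

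**Figure D4:**
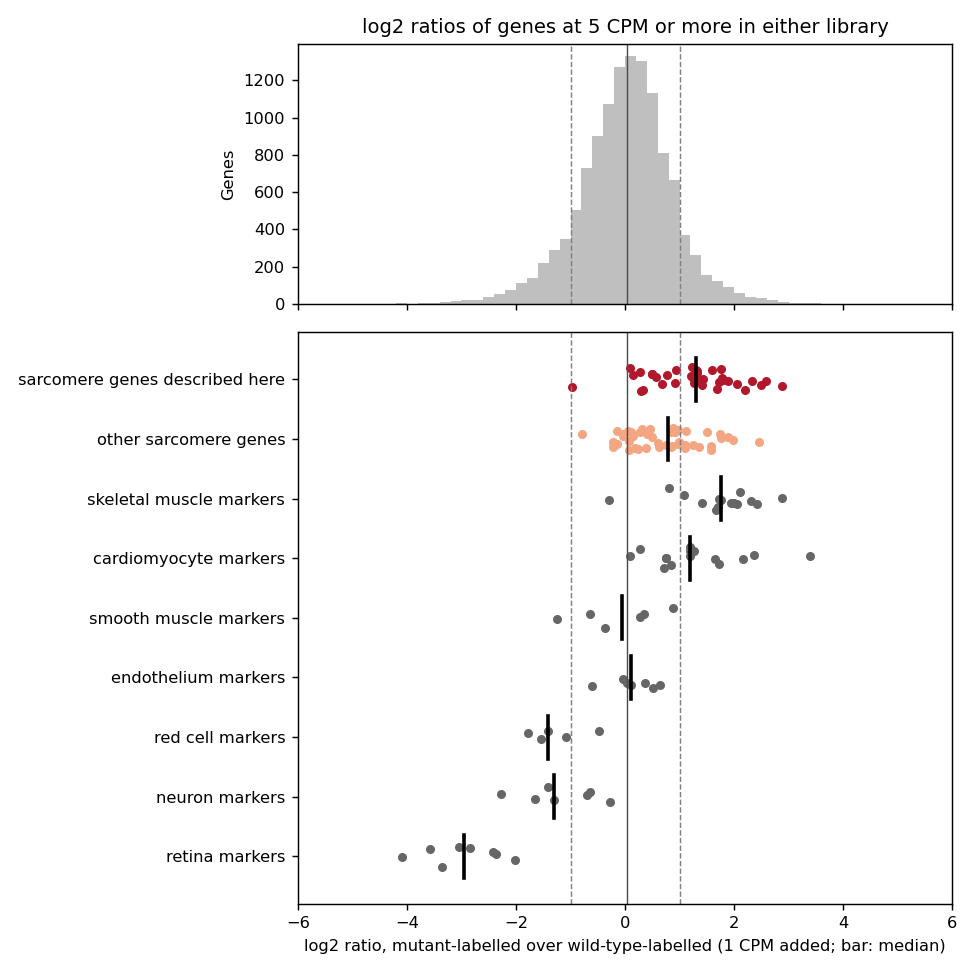
Histogram of log2 ratios of the 12259 genes that reached 5 CPM (top) and log2 ratios of those genes that are in the described set or in 8 further lists (bottom), with the median as a black bar and dashed lines at 2-fold. The sarcomere genes described here (median 1.31) lie between the cardiomyocyte markers (1.19) and the skeletal muscle markers (1.76), and the retina markers (-2.94) lie farthest to the left.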

How the data were processed

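RNA of dissected, flash-frozen hearts was sequenced as 1 library per genotype, per the labels' protocols. Named in the submitters' processing notes, without versions, are featureCounts, HISAT2, Trimmomatic, bcl2fastq and the GRCz11 build. Strand and multi-mapping settings are not given. Raw counts per gene were deposited beside FPKM values, which equalled the count divided by the library total and 1 length per gene (tested on the deposited values). The authors' deposited table of the comparison gives a signal (counts over size factors of 0.854 and 1.17), a fold ratio, its log2 and an FDR (a q-value), and is named for EBSeq.

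TMM factors (0.904 mutant-labelled, 1.11 wild-type-labelled) came from edgeR 4.0.16 in R 4.3.3. Ratio intervals are exact Clopper-Pearson bounds of the conditional binomial (scipy 1.17.1). Odds ratios have exact conditional intervals. The labels mention no molecular identifiers, so intervals cover counting error only. Scripts were tested on simulated counts.

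All members are named. Of other sarcomere genes, the 8 with the largest log2 ratio past 2-fold in each direction and tmod1 are named. So are tpm1, tpm3, actn1, actn4, mybpc2a, fhl1b, fhl3a, fhl3b, flnca, capza1a, capzb, myoz1a and myoz3a, chosen after their values were seen. Of markers, up to 3 of the highest FPKM per list, exceptions to a count and extremes of a range are named. The markers tnnt3b, tnnt2a, tnni1b, myh7l, myh6, slc8a1a, nkx2.5, tbx5a, myog, myf5, myf6, mylpfa, mylpfb, hbbe3 and alas2 were chosen after seeing the data. Members and lists were chosen with earlier results of these data known, and the 11 paralog pairs after seeing the data. Alternatives were other scalings (total counts, DESeq2 1.42.0 size factors), added values, filters and fold rules, and FPKM.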

Additional observations from a re-analysis of the deposited data

How the results depend on the processing

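No paired analysis was possible because each genotype has 1 library. The count of 23 higher members was 19 to 23 under the other scalings, added values and filters. It was 15 with the deposited FPKM (1 FPKM added before the log2), 27 with a 1.5-fold and 6 with a 4-fold rule. FPKM are scaled by total counts, and the added 1 FPKM draws ratios of genes with low FPKM towards 1. For neb, the log2 ratio was 1.14 with total counts and 0.54 with FPKM. Among all genes, 702 of 12331 were higher with total counts and 777 of 12850 with the total without genes over 1%. With a 20 CPM filter 695 of 6608 were higher. Of 12259 genes, 549 were higher with FPKM, 178 with the 4-fold and 2733 with the 1.5-fold rule. The count of 0 lower members became 1, fhl2b, with total-count scaling, with a total without genes over 1%, with 0.25 CPM added and with a 1.5-fold rule. Among all genes, lower ones outnumbered higher ones in each of these settings except the 1.5-fold rule. The median of 1.31 was 1.02, 1.05 and 0.96 with total counts, the total without genes over 1% and FPKM. Of the other sarcomere genes, the 14 of 46 higher became 9 of 31 with a 20 CPM filter and 6 of 46 with FPKM. They became 26 of 46 with the 1.5-fold and 1 of 46 with the 4-fold rule. The 0 lower became 1, mybpc2a, with total counts, the total without genes over 1% and the 1.5-fold rule. The odds ratio of tpm2 and tpma against tpm4a was 1.41 by FPKM and 1.27 by reads. With total counts or FPKM the sign turned for ldb3a, fhl1a and tpm2. Without the alpha-actin and titin genes, an alternative chosen after seeing the data, 20 of 30 members were higher. Beyond the settings themselves, the cause of these differences was not tested. Depth limits nebl, lmod3 and cryabb.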

Other observations

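Across the 36 members at 5 CPM or more, the log2 ratio had a Spearman correlation of -0.32 with the FPKM of the wild-type-labelled library and of 0.36 with gene length. Across 12259 genes the same correlations were -0.10 and -0.03. The wild-type-labelled level is also the denominator of the ratio, so a negative correlation with it is in part built in. These are descriptions across genes of 2 libraries, and genes are not independent replicates.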
